A study of Mus musculus with 4 samples.

Results

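The genes described here are 6 acyl-CoA thioesterases, Acot1, Acot2, Acot7, Acot9, Acot11 and Acot13, together with Ucp3, Fgf21 and Angptl4, 3 genes known as targets of the nuclear receptor PPARα. They are 9 of the 18193 genes measured, and were taken as every probe set (a group of short array probes read as 1 value) whose only annotated symbol is 1 of these 9 names. This gave 13 probe sets out of 45037, 8 of them for the thioesterases and 5 for the other genes, and all 13 had values. The names were chosen with earlier knock-in against wild-type results of these arrays known, so their differences are given below as a description without a test. Hearts came from C57B6 mice aged 3.6 months at baseline, without treatment, and total RNA was hybridised to single-colour Affymetrix arrays. The 2 knock-in arrays hold heart RNA of the GSK-3alpha S21A genotype, in which alanine replaces serine 21 of the kinase, and the 2 wild-type arrays hold heart RNA of wildtype mice. The labels give neither zygosity nor sex, and do not say whether each array is a separate animal, so n counts arrays and the spread between replicates may be technical.

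Fatty acids enter metabolism as acyl-CoA esters. Acyl-CoA thioesterases hydrolyse these esters back to free fatty acid and coenzyme A, and family members differ in compartment and preferred chain length. PPARα, with its partner RXR, is the main lipid-sensing transcription factor of the heart, and its known targets include genes of fatty acid oxidation, thioesterases of the Acot1 and Acot2 group, the mitochondrial carrier Ucp3 and the secreted proteins Fgf21 and Angptl4. Serine 21 is the site at which Akt and related kinases restrain GSK-3α, and the comparison asks which transcripts differ in the heart when that restraint is lost.

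By its brightest probe set, each of Acot1, Acot2 and Fgf21 had lower values on both knock-in arrays than on both wild-type arrays, as did 24.1% of all genes. The bases before their annotated start sites are therefore printed, together with those of Ucp3, whose window alone among the members' windows held the letters searched for. Sequences are from RefSeq on build GRCm38.p6, the window being the 250 bases before the start, 5′ to 3′ on the gene's own strand; 7 of the 9 genes had such a sequence, and Acot13 and Angptl4 are named only. The windows lie at chr12:84009252-84009501 on the + strand for Acot1, chr12:83987611-83987860 on the + strand for Acot2, chr7:45615491-45615740 on the − strand for Fgf21 and chr7:100472741-100472990 on the + strand for Ucp3. Capitals mark the hexamer AGGTCA and the direct repeat AGGTCANAGGTCA, the arrangement that PPARα with RXR is known to bind, allowing up to 2 mismatched letters in the repeat.
Acot1: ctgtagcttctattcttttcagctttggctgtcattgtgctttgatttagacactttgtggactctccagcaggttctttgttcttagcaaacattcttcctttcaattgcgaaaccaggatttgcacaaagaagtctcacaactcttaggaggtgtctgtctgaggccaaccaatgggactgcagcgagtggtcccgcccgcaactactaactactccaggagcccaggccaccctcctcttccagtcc
Acot2: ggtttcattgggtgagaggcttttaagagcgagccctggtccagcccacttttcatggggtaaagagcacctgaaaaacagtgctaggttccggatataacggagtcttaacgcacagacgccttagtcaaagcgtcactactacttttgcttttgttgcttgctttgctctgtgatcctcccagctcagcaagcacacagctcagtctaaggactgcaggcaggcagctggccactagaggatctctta
Fgf21: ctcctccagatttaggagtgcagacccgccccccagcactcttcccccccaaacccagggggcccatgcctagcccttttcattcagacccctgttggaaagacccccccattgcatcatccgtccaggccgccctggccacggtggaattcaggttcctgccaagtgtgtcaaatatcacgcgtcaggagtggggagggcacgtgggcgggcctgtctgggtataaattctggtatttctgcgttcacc
Ucp3: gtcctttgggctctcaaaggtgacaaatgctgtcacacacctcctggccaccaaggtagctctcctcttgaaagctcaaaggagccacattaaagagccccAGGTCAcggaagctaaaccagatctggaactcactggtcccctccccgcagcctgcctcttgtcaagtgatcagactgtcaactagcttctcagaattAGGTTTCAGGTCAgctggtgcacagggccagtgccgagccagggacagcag
The Acot1, Acot2 and Fgf21 windows held neither arrangement on either strand. The Ucp3 window held the hexamer at 2 places, starting 149 and 44 bases before the start, and AGGTTTCAGGTCA, starting 51 bases before it, matches the repeat with 2 mismatches and overlaps the second hexamer. Searched in the same way, 14% of 32851 mouse promoter windows held the hexamer, 3.24% held the repeat with up to 2 mismatches and 0.0335% held it exactly. A match is a description of letters and not a binding site, and a window without one says nothing of the receptor.

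The values are RMA log2 values, a scale on which a difference of 1 is a doubling, and array medians lay between 6.14 and 6.23. Cardiomyocyte markers defining the tissue were bright on every array: Myh6 lay at 14.71 and 14.62 on knock-in arrays and at 14.53 and 14.61 on wild-type arrays. Gsk3a itself, the altered gene, had log2 values of 10.62 and 10.80 on knock-in arrays and 11.16 and 11.08 on wild-type arrays. Its difference was −0.42 with a standard error (SE) of 0.12, and a substitution of 1 amino acid need not alter a transcript's level. Transcripts typical of liver were higher on both knock-in arrays. All 26 measured liver markers had a higher knock-in mean, and their summed unlogged signal was 12280 and 4809 on knock-in replicates 1 and 2, against 2319 and 1616 on wild-type replicates 1 and 2. No RMA value is 0, and the 5 defining markers Alb, Apoa1, Fga, Ttr and Serpina1b had differences from 1.52 to 3.71. Albumin (Alb) lay at 10.81 and 9.66 on the knock-in arrays, and at 7.33 and 5.72 on the wild-type arrays. The 3′ minus 5′ signal of the Gapdh control, a sign of RNA quality, was 0.54 and 0.76 on the knock-in arrays and 0.62 and 0.61 on the wild-type arrays. Markers of other heart cells were also mostly higher on knock-in arrays, by less. The knock-in mean was higher for 8 of 8 fibroblast markers (median 0.17, 4 without overlap), 7 of 8 endothelial markers (0.23, 6 without overlap) and 6 of 6 macrophage markers (0.12, 4 without overlap). Among all genes, 46.9% had a higher knock-in mean and 22.5% lay higher without overlap. Over 12 alternative fits the lowest median was 0.07 for fibroblast, 0.15 for endothelial and 0.07 for macrophage markers. The part of liver transcripts, of these cell types or of RNA quality in the differences below was not tested.

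**Figure D1:**
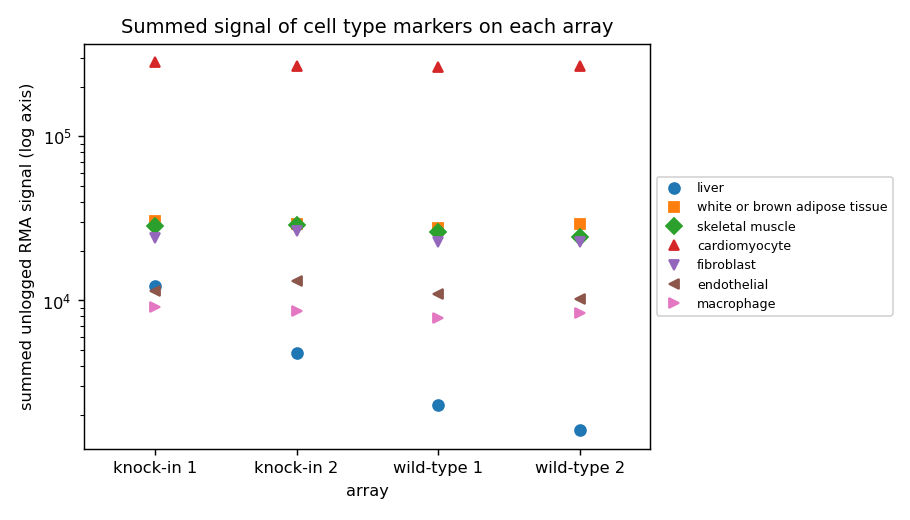
Summed unlogged RMA signal of 7 marker lists (log axis) on each of the 4 arrays, 1 symbol per list. The liver sum is higher on both knock-in arrays (12280 and 4809) than on the wild-type arrays (2319 and 1616), while the cardiomyocyte sum lies between 265093 and 282556 on all arrays.

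Limma, fitted to all 45037 probe sets with Benjamini-Hochberg adjustment, called 3 probe sets (0.00666%) higher in knock-in hearts and 0 lower at an adjusted p under 0.05, and 0 of the 13 member probe sets was among them. At an unadjusted p under 0.05 there were 4 member probe sets, beside 2283 higher and 2530 lower over the whole table. The groups did not overlap for 5 of the 13, of which 3 were lower and 2 higher in knock-in hearts, whereas 45.2% of all probe sets did not overlap, 26.7% lower and 18.5% higher. Taken by gene, the same 5 stood apart among 9, against 46.5% of all genes. Since the members were chosen on this contrast, nothing is read from these counts. The median difference over the 9 genes, each by its brightest probe set, was −0.02, against −0.01 over all 18193 genes. By the same probe sets 5 genes had a lower and 4 a higher knock-in mean, against 53% lower and 46.9% higher of all genes. Their differences ran from −0.40 to 0.36, and the median turned to 0.04 when arrays were shifted to 1 median.

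Acot1 encodes the cytosolic long-chain thioesterase that is known to be induced by PPARα ligands and by fasting. Its probe set (1449065_at) had log2 values of 8.71 and 8.80 on the knock-in arrays, and of 9.09 and 9.18 on the wild-type arrays. The groups were separated by 0.28, while the knock-in replicates lay 0.09 and the wild-type replicates 0.10 apart. The knock-in mean of 8.76 ± 0.07 was 1.30-fold below the wild-type mean of 9.13 ± 0.07 (SD, n = 2 each), a log2 difference of −0.38 with an SE of 0.11. In this RNA from whole tissue, fewer cells of a type and less RNA per cell cannot be told apart. Of all genes, 2.04% had a lower difference. With each array left out in turn, the Acot1 difference stayed between −0.42 and −0.33.

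Acot2 encodes the closely related enzyme of the mitochondrial matrix, and lies next to Acot1 on chromosome 12. Its brighter probe set (1439478_at) had log2 values of 11.93 and 11.78 on the knock-in arrays and of 12.28 and 12.20 on the wild-type arrays. Here too both knock-in values lay below both wild-type values, by 0.26, against 0.15 between the knock-in and 0.08 between the wild-type replicates. The knock-in mean was 11.86 ± 0.11 and the wild-type mean 12.24 ± 0.06 (SD, n = 2 each), which is 1.30-fold lower, a log2 difference of −0.38 with an SE of 0.11. The second Acot2 probe set (1422996_at) did not share this pattern. It was dim, with 6.13 and 6.01 on the knock-in arrays inside the 6.40 and 5.80 of the wild-type arrays, and its difference was −0.03 with an SE of 0.20. Its sign turned in 5 of 11 alternative settings, among them all 3 rescalings of the arrays, whereas the brighter probe set stayed between −0.45 and −0.30 in 12.

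A further probe set (1422997_s_at) is annotated to both Acot1 and Acot2, so it is not counted among the 13 and cannot tell the genes apart; it was singled out after its values were seen. It had log2 values of 9.60 and 9.63 on the knock-in arrays, against 10.30 and 10.15 on the wild-type arrays. Its groups stood farther apart than those of any member probe set, with a difference of −0.60 (SE 0.11), or 1.52-fold lower in knock-in hearts. Only 0.165% of genes had a lower difference, and it stayed between −0.68 and −0.53 in every alternative setting that kept it. In all, 3 measurements of this gene pair lay on the same side and 1 dim one overlapped between genotypes. The genes were chosen on this contrast, and the shared probe set reads the same transcripts, so nothing is read from this tally.

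The Acot1 and Acot2 genes belong to a run of 6 neighbouring thioesterase genes on chromosome 12, in the order Acot2, Acot1, Acot4, Acot3, Acot5 and Acot6. The other 4 are named here for their position. Acot3 and Acot6 lay above the array medians. Acot3, which in the mouse encodes a peroxisomal enzyme, had log2 values of 7.32 and 7.06 on the knock-in arrays and 7.19 and 7.19 on the wild-type arrays. Acot6 had 7.29 and 7.39 on knock-in arrays and 7.53 and 7.26 on wild-type arrays. The genotypes overlapped for both genes, with differences of −0.01 and −0.06. Other probe sets of Acot4 and Acot6 differed by 0.05 and −0.25. Acot4 (difference −0.28) and Acot5 (−0.20) lay below the median of every array, where a value may be mostly background.

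**Figure D2:**
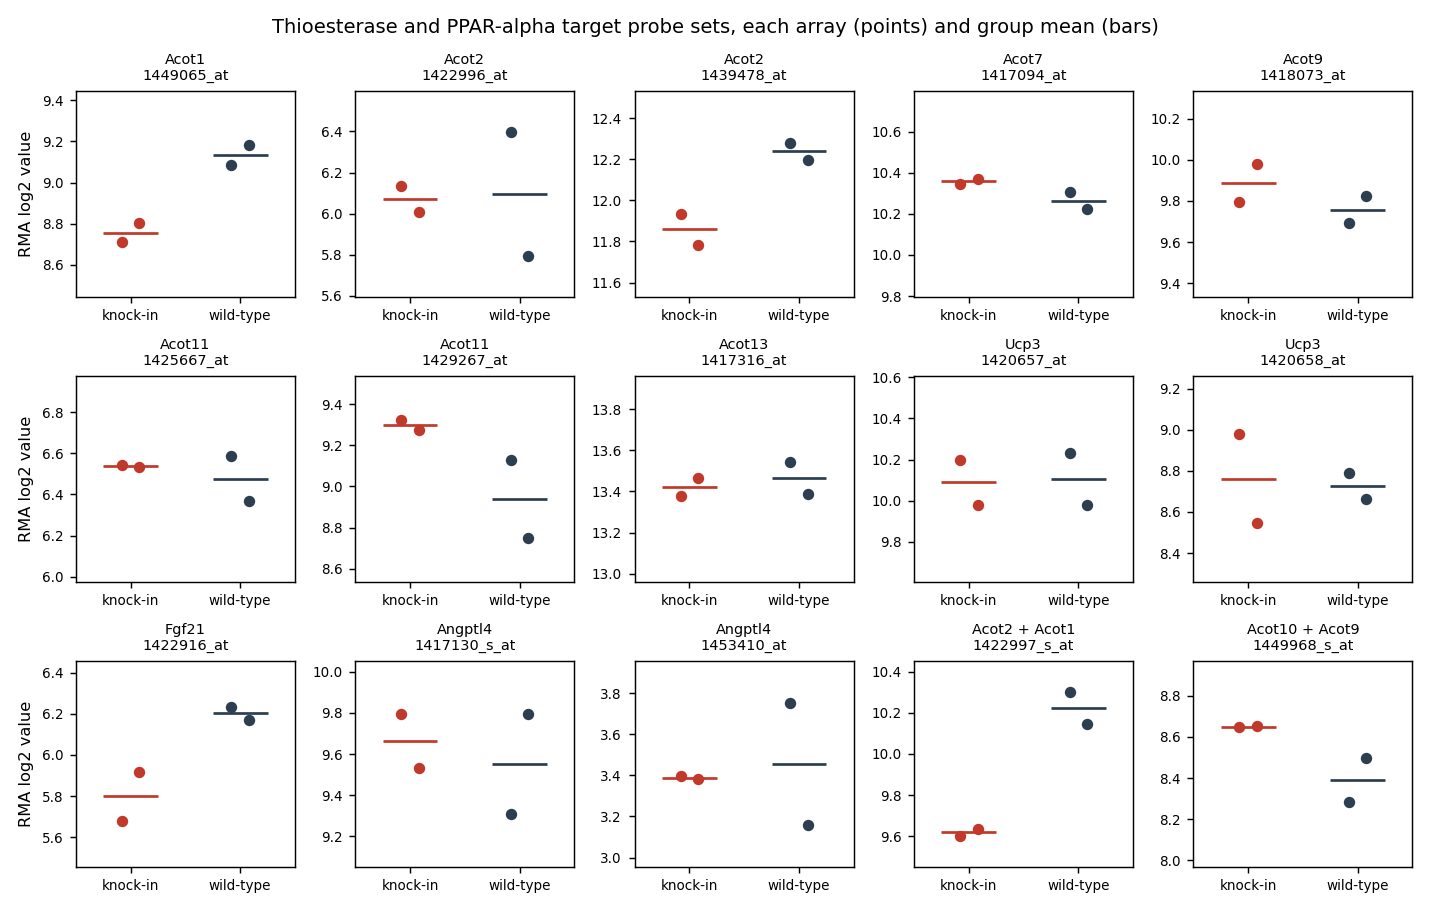
RMA log2 value (vertical axis, 1 log2 unit tall in every panel) of each member probe set and of the 2 probe sets shared with another gene, on the 2 knock-in (left, red) and 2 wild-type (right, dark) arrays; points are arrays and bars are group means. Both knock-in points lie below both wild-type points for Acot1, the brighter Acot2 probe set, Fgf21 and the shared Acot2 and Acot1 probe set, and above them for Acot7, the brighter Acot11 probe set and the shared Acot10 and Acot9 probe set.

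The member genes Acot7, Acot9, Acot11 and Acot13, which lie outside that cluster, had differences from −0.04 to 0.36 by their brightest probe sets. Acot11, known for its induction in brown fat by cold and for its lipid-binding START domain, had the largest positive difference. Its brighter probe set (1429267_at) had log2 values of 9.32 and 9.27 on the knock-in arrays and of 9.13 and 8.75 on the wild-type arrays. The knock-in replicates lay 0.05 apart, and the wild-type replicates 0.38 apart, which is wider than the 0.15 that separated the groups. The knock-in mean was 9.30 ± 0.04 and the wild-type mean 8.94 ± 0.27 (SD, n = 2 each), 1.28-fold higher, a log2 difference of 0.36 with an SE of 0.15. Its size rested on wild-type replicate 2, without which it was 0.17, and it was 0.55 without wild-type replicate 1. The other Acot11 probe set (1425667_at) had 6.54 and 6.53 on knock-in arrays and 6.59 and 6.37 on wild-type arrays, overlapping, with a difference of 0.06 (SE 0.12).

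Acot9, a mitochondrial thioesterase, had log2 values of 9.80 and 9.98 on the knock-in arrays, against 9.69 and 9.82 on the wild-type arrays. These overlapped, and the difference was 0.13 with an SE of 0.12. The probe set annotated to both Acot10 and Acot9 (1449968_s_at, outside the 13 and also singled out after its values were seen) had 8.65 and 8.65 on knock-in arrays and 8.28 and 8.50 on wild-type arrays. Its groups did not overlap, with a difference of 0.26 (SE 0.12) that was 0.15 without wild-type replicate 1. Acot7, the cytosolic thioesterase known for its abundance in neurons, had 10.34 and 10.37 on knock-in arrays and 10.31 and 10.22 on wild-type arrays. The knock-in values lay above the wild-type values by 0.04, and the difference of 0.09 (SE 0.11) came to 0.01 after quantile normalisation and 0.02 after cyclic loess. Acot13, a small thioesterase associated with mitochondria that binds the phosphatidylcholine transfer protein, had 13.38 and 13.46 on knock-in arrays and 13.54 and 13.39 on wild-type arrays. Its groups overlapped, and its difference was −0.04 with an SE of 0.11, turning to 0.02 when arrays were shifted to 1 median.

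Of the 3 PPARα targets that are not thioesterases, Fgf21 had non-overlapping groups and the other two did not. Fgf21 encodes a hormone made chiefly by liver that stress can also induce in heart muscle. Its single probe set (1422916_at) had log2 values of 5.68 and 5.92 on the knock-in arrays, against 6.23 and 6.17 on the wild-type arrays. The knock-in mean was 5.80 ± 0.17 and the wild-type mean 6.20 ± 0.04 (SD, n = 2 each), a difference of −0.40 with an SE of 0.12 that lay between −0.52 and −0.28 with 1 array left out. These values lie at or below the array medians, so they may hold mostly background and no fold is given. The lowest Fgf21 value was on knock-in replicate 1, the array with the highest liver marker sum. Of the wild-type pair, replicate 1 had both the higher Fgf21 value and the higher liver marker sum. The part of liver transcripts in the Fgf21 values was not tested. Fgf21 shares chromosome 7 with Gsk3a, and is 327 measured genes away from it.

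Ucp3 encodes an inner-membrane carrier of heart, skeletal muscle and brown fat, named for its likeness to the uncoupling protein Ucp1. Its brighter probe set (1420657_at) had log2 values of 10.20 and 9.98 on the knock-in arrays and of 10.23 and 9.98 on the wild-type arrays. The groups covered nearly the same range, and the difference was −0.02 with an SE of 0.14. Its other probe set (1420658_at) had 8.98 and 8.54 on knock-in arrays and 8.79 and 8.66 on wild-type arrays, with a difference of 0.04 (SE 0.16). Each sign depended on the scaling: shifting arrays to 1 median turned the brighter probe set to 0.04, and quantile normalisation turned the other to −0.05. Ucp3 is abundant in skeletal muscle, of whose 12 markers 4 had a higher and 8 a lower knock-in mean, and 6 lay above the median of every array. The 4 defining ones (Myh4, Tnnt3, Pvalb and Actn3) lay below the array medians, with Myh4 at 4.68 and 4.43 on knock-in arrays and 4.78 and 4.70 on wild-type arrays. The summed signal of the 12 was 28398 and 28860 on knock-in arrays and 26309 and 24525 on wild-type arrays. Ckm and Acta1, the brightest of them, make up most of it, so it is no measure of skeletal muscle. Acta1, which heart muscle also expresses, had 12.97 and 12.91 on knock-in arrays and 12.61 and 12.29 on wild-type arrays. Ckm had 14.26 and 14.32 on knock-in arrays and 14.22 and 14.19 on wild-type arrays. These 2 lay higher without overlap and 3 other markers lower, against 22.5% and 24.1% of all genes. The part of skeletal muscle in the Ucp3 values was not tested.

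Angptl4 encodes a secreted inhibitor of lipoprotein lipase. Its brighter probe set (1417130_s_at) had log2 values of 9.79 and 9.53 on the knock-in arrays, and of 9.31 and 9.79 on the wild-type arrays. The wild-type arrays spanned the knock-in values, so the difference of 0.11 (SE 0.18) was smaller than the distance of 0.48 between the wild-type replicates. It ranged from −0.13 without wild-type replicate 1 to 0.35 without wild-type replicate 2. The other Angptl4 probe set (1453410_at) lay below the median of every array, with 3.40 and 3.38 on knock-in arrays and 3.75 and 3.16 on wild-type arrays. Angptl4 is abundant in fat, and the adipose marker Adipoq had 5.13 and 6.89 on knock-in arrays and 5.23 and 5.30 on wild-type arrays, so knock-in replicate 2 alone was high. The 11 measured adipose markers, 7 of them with a higher knock-in mean, summed to 30680 and 29059 on knock-in arrays and 27815 and 29380 on wild-type arrays. Cox7a1 and Fabp4, with group means from 13.54 to 13.86, make up most of that sum, so it is no measure of fat. Groups did not overlap for 2 markers higher and 3 lower, against 22.5% and 24.1% of all genes. Of the knock-in pair, Angptl4 was lower on replicate 2, where Adipoq was high. It was higher on replicate 1, where the sum led by Cox7a1 and Fabp4 was highest. The part of fat in the Angptl4 values was not tested.

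**Figure D3:**
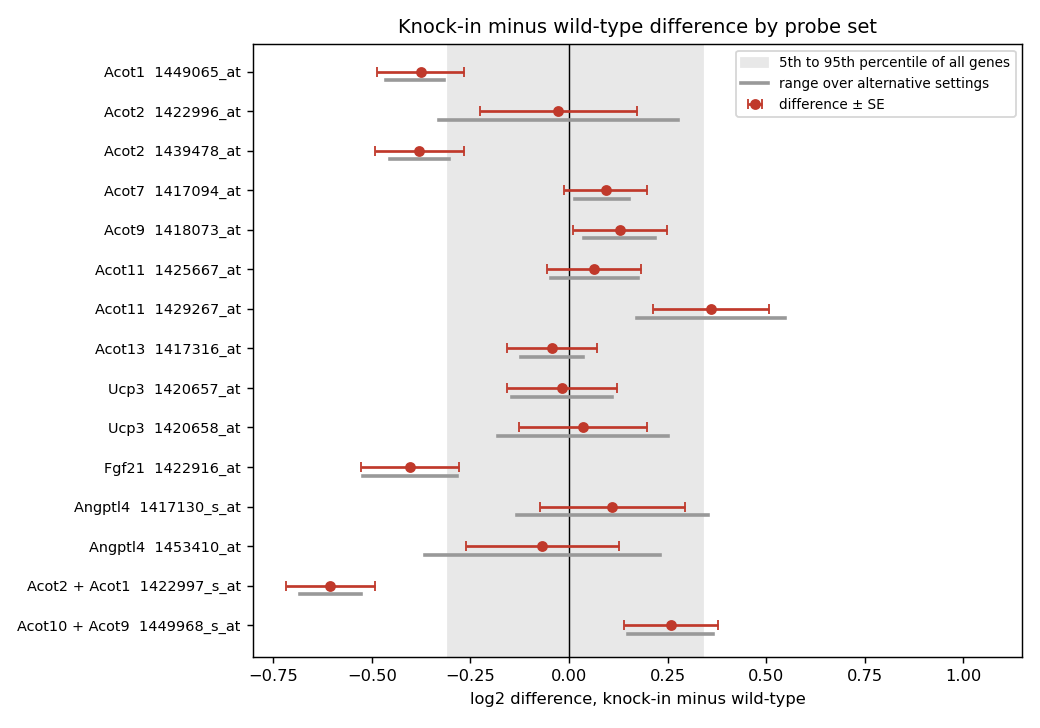
Log2 difference, knock-in minus wild-type (horizontal axis), of each member probe set and the 2 shared probe sets; red points are differences with SE bars, grey lines the range over the alternative settings, and the grey band the 5th to 95th percentile of all genes (−0.31 to 0.34). Acot1, the brighter Acot2 probe set, Fgf21 and the shared Acot2 and Acot1 probe set lie left of the band, and the brighter Acot11 probe set at 0.36 lies just right of it.

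The profiles over the 4 arrays were also compared among genes, each centred on its own mean, by the root mean square distance. Among the members, Acot1 lay 0.08 from Fgf21 and 0.11 from Acot2, a closeness that the choice of members on this contrast fixes in part, and Fgf21 lies near background. The nearest of the 12317 genes with a mean of at least 6 were Shroom3, Cckbr and Otud3 for Acot1 (0.01 to 0.02), Wnt9b, 2310079G19Rik and Apbb1ip for Acot2 (0.01 to 0.02), and Epb41l4b, Slc28a3 and Gsk3a for Fgf21 (0.01 to 0.02). The median distance over those genes was 0.23 from Acot1, 0.24 from Acot2 and 0.24 from Fgf21. With 4 arrays such distances are a description.

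Other genes of the same pathways are given by counts over lists written with earlier results of these data known. Of 111 genes in the 7 lists, limma called 0 higher and 0 lower. At an unadjusted limma p under 0.05 there were 9 higher and 3 lower genes. Over the whole table there were 2283 higher and 2530 lower among 45037 probe sets. Since results were known when the lists were written, nothing is read from these counts. Over all genes, 0.011% were called higher and 0% lower, and groups did not overlap for 22.5% higher and 24.1% lower. Of 10 other thioesterase genes, 3 had a higher and 7 a lower knock-in mean, with a median of −0.08, and groups did not overlap for 1 higher and 3 lower. Baat, which joins bile acids to amino acids, had 7.15 and 7.20 on knock-in arrays and 7.42 and 7.25 on wild-type arrays, a difference of −0.16, while its other probe set lay at 0.09. The peroxisomal thioesterase gene Acot8 had 7.94 and 8.06 on knock-in arrays and 7.89 and 7.93 on wild-type arrays, a difference of 0.09.

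Of 39 other PPARα target genes, 22 had a higher and 17 a lower knock-in mean. Their median was 0.01, and it lay between −0.05 and 0.07 over the alternative settings, while groups did not overlap for 10 higher and 8 lower. Pdk4, the pyruvate dehydrogenase kinase that curbs glucose oxidation, had 13.29 and 13.19 on knock-in arrays and 13.25 and 13.36 on wild-type arrays. Plin2, a lipid droplet coat, had 11.53 and 11.72 on knock-in arrays and 11.46 and 11.68 on wild-type arrays. Both overlapped, with differences of −0.06 and 0.06, that of Plin2 turning to −0.01 after cyclic loess. Acadm, the medium-chain acyl-CoA dehydrogenase, had 14.27 and 14.21 on knock-in arrays and 14.12 and 14.15 on wild-type arrays, and the fatty acid transporter Cd36 had 13.43 and 13.33 on knock-in arrays and 13.29 and 13.22 on wild-type arrays by its brightest probe set. The other Cd36 probe sets differed by 0.12 and −0.09, the last with 12.13 and 12.04 on knock-in arrays, both below the 12.20 and 12.16 of the wild-type arrays. By size among genes that did not overlap and had a mean of at least 6, the list was led by Fabp1 (3.06), Txnip (−0.52) and G0s2 (0.37). Below that mean, the peroxisomal thiolase gene Acaa1b differed by 1.31, with 5.96 and 5.32 on knock-in arrays and 4.42 and 4.25 on wild-type arrays, all below the array medians. Fabp1 is the liver fatty acid binding protein, also counted here as a liver marker, and had 8.85 and 7.51 on the knock-in arrays, against 5.29 and 4.95 on the wild-type arrays. Txnip, an inhibitor of thioredoxin and of glucose uptake, had 11.82 and 11.35 on knock-in arrays and 11.94 and 12.27 on wild-type arrays, and its difference was −0.28 without knock-in replicate 2. G0s2, an inhibitor of adipose triglyceride lipase, had 10.79 and 10.94 on knock-in arrays and 10.41 and 10.58 on wild-type arrays.

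**Figure D4:**
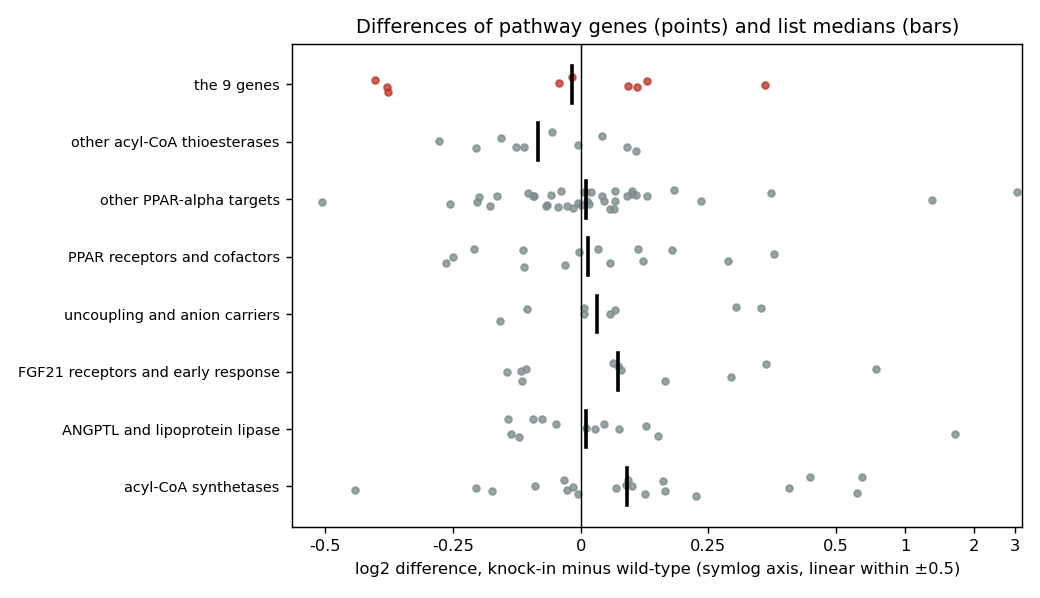
Log2 difference, knock-in minus wild-type (horizontal axis, linear within ±0.5 and logarithmic beyond), of the 9 genes (red) and of 7 lists of pathway genes (grey), 1 point per gene, with list medians as bars. The 9 genes fall into 3 genes between −0.40 and −0.38, a group around 0 and Acot11 at 0.36, while the other PPARα targets have a median of 0.01.

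The receptor and its cofactors were similarly spread, with a higher knock-in mean for 7 of 14 genes, a lower one for 7 and a median of 0.01. Ppara itself had 9.85 and 9.90 on knock-in arrays and 9.75 and 9.88 on wild-type arrays by its brightest probe set, a difference of 0.06 (SE 0.11) that turned to −0.02 after quantile normalisation. Its other probe sets differed by −0.06 and −0.12. The coactivator gene Ppargc1b had 11.10 and 11.37 on knock-in arrays and 11.40 and 11.57 on wild-type arrays, a difference of −0.25 that was −0.12 without knock-in replicate 1. The corepressor gene Nrip1 had 9.25 and 9.27 on knock-in arrays and 9.05 and 8.90 on wild-type arrays, a difference of 0.29, while its other probe sets lay between −0.14 and 0.35. The coactivator gene Ncoa2 differed by 0.38, and by 0.14 without wild-type replicate 1. The remaining 3 of its 4 probe sets ranged from −0.16 to 0.30.

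Acyl-CoA synthetases and acyl-CoA binding proteins, which make and carry the substrates of thioesterases, had a median of 0.09 over 20 measured genes, of which 12 had a higher knock-in mean. Acsl4, which prefers arachidonate, had 7.43 and 7.55 on knock-in arrays and 6.46 and 7.23 on wild-type arrays. Its difference of 0.65 was 0.26 without wild-type replicate 1, and its other probe sets lay at −0.04 and 0.13. Acsl6 differed by 0.45, and by 0.27 without that array, and its other probe set by 0.15. Acbd5, a peroxisomal acyl-CoA binding protein, differed by 0.61, and by 0.16 without it, while its other probe set lay at −0.08. For these 3 genes wild-type replicate 1 was the lowest array.

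Genes around the remaining members also had medians near 0. For Ucp3, 6 of 8 other mitochondrial carriers had a higher knock-in mean, and the median was 0.03. The adenine nucleotide carrier Slc25a4 differed by 0.06, the phosphate carrier Slc25a3 by 0.07 and Slc25a30 by 0.35, the last by 0.16 without wild-type replicate 1. Other probe sets of Slc25a30 lay between −0.13 and 0.30 and of Slc25a4 between −0.03 and 0.25. For Fgf21, 7 of 11 receptor and early response genes had a higher knock-in mean, and the median was 0.07, which turned to −0.01 after quantile normalisation. The FGF21 coreceptor gene Klb lay below the array medians, with 5.12 and 5.01 on knock-in arrays and 5.18 and 5.18 on wild-type arrays. Its other probe set, also below them, had 4.98 and 4.68 on knock-in arrays and 5.23 and 5.10 on wild-type arrays, a difference of −0.33. The receptor gene Fgfr1 differed by 0.07, its other probe sets by −0.04 and 0.10. Dusp6 and Spry4, feedback inhibitors of FGF receptor signalling to ERK, differed by 0.36 and 0.29, with both knock-in values above both wild-type values, and Fgfr2 differed by −0.11. Other Spry4 probe sets lay between −0.28 and 0.30, and those of Fgfr2 at −0.33 and −0.15. For Angptl4, 7 of 13 genes around lipoprotein lipase had a higher knock-in mean, and the median was 0.01. Lpl, its target enzyme, had 14.54 and 14.41 on knock-in arrays and 14.43 and 14.43 on wild-type arrays, a difference of 0.05 (SE 0.11), and 0.17 by its other probe set. Apoc3, an inhibitor of lipoprotein lipase that is also counted here as a liver marker, had the largest difference of the list, 1.65, with 7.22 and 5.75 on knock-in arrays and 5.03 and 4.65 on wild-type arrays. Only its value on knock-in replicate 1 lay above the array medians, and the lower values may be mostly background. The lipase maturation factor genes Lmf1 and Lmf2 differed by 0.08 and −0.07, and Lmf1 turned to −0.02 after quantile normalisation and was −0.18 by its other probe set.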

How the data were processed

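Per the submitters' processing notes, the authors made the deposited log2 values with RMA in Affymetrix Expression Console. RMA subtracts background, equalises the distributions of the arrays and reduces each probe set to 1 value, so a difference common to most genes is lost. Per the labels, normalisation covered these 4 arrays and no others. For version and filters, nothing was given in the sources used here. Of 45101 probe sets, 64 controls were left out. Names came from the platform's annotation: 34945 probe sets had 1 symbol, 932 several and 9160 none listed. Of 18193 genes, 18032 matched a mouse gene table of GRCm38.p6, used for current symbols and gene order. For each gene, the probe set of highest mean over the 4 arrays was used. Members and lists were chosen with earlier results of these data known. Named genes are the members, a fixed set of lipid genes, and up to 3 per list with the largest difference among those without overlap and with a mean of at least 6. Differences and SEs, knock-in minus wild-type, came from limma 3.58.1 (R 4.3.3, lmFit and eBayes, no covariate, 2 residual and 4.54 prior degrees of freedom). Its p-values were adjusted by Benjamini-Hochberg over all probe sets. The same fit was run on simulated normal noise with planted changes larger than those of the members, so nothing about the members is read from that run. Precision is limited by the number of arrays, with a median SE of 0.12. Tables and figures used Python 3.11.15, pandas 2.3.3 and matplotlib 3.10.9. Alternatives were a variance trend, filters on dim and cross-hybridising probe sets, 3 rescalings, array weights, a replicate block, 1 array left out, and the mean of a gene's probe sets.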

Additional observations from a re-analysis of the deposited data

How the results depend on the processing

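No member probe set was called by limma in any of the 12 alternative fits. Over all probe sets the count of calls, all higher, was 3 in the reported fit, 1 with probe sets of a mean under 7 left out, 11 with arrays shifted to 1 median, and 0 to 2 with 1 array left out; the 0 came without knock-in replicate 1, and the cause was not tested. The replicate number as a block gave 4 calls and 0 among the members. The labels do not say that the numbers pair arrays, and same-numbered arrays deviated from their group means with a correlation of 0.08 across probe sets. The median over the 9 genes lay between −0.12 and 0.04 over 13 alternatives, that of the other thioesterases between −0.16 and 0.02, of the PPARα targets between −0.05 and 0.07, and of the acyl-CoA synthetases between 0.07 and 0.15. Acot1 stayed between −0.46 and −0.32, the brighter Acot2 probe set between −0.45 and −0.30, and Fgf21 between −0.52 and −0.28, the dim filter leaving Fgf21 out. Of 662 single values under alternatives, 35 moved by more than the spread between replicates. Only the 3 rescalings could move a value that far, so the count says little of stability. The other fits leave a single difference as it is, and leaving out 1 array cannot shift it beyond that spread. With 1 array left out, the lone array of its group is assumed to vary like the other pair. Dim probe sets (Fgf21, the lower Acot2 and Angptl4 sets, Klb) are limited by background.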
